A study of Mus musculus with 13 samples.

Results

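Macrophages engulf dying cells, microbes and shed milk fat, and the genes that mark them encode receptors for antibodies, sugars and modified lipids, the adaptors those receptors signal through, and the enzymes that digest what is taken up. Resident tissue macrophages of the mouse carry the mannose receptor gene Mrc1, the haemoglobin scavenger receptor gene Cd163 and the folate receptor gene Folr2. Macrophages loaded with debris or lipid carry the lysosomal membrane glycoprotein gene Gpnmb and the lipid-sensing receptor gene Trem2. The gland is remodelled by such cells after weaning, when milk-producing epithelium dies. A list of 41 macrophage and phagocyte gene symbols was looked up in deposited expression tables of 23951 symbols, and all 41 were found. The question asked of the list was whether resident-type and lysosome-rich members move alike.

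RNA sequencing libraries of whole mouse mammary glands came from females labelled as conditional Jak1 knockouts and from wildtype controls, 13 libraries in all. JAK1 is a tyrosine kinase that relays signals of interferons and of the interleukin 6 class of cytokines. Day 2 of involution, after suckling has ended, had 4 knockout and 3 control libraries. Day 7 of lactation had 3 knockout and 3 control libraries. Each library carries the number of a mouse (M43196 and so on), M43767 (knockout) and M43768 (control) stand at both stages, and replicates are these numbered libraries. The labels name neither the promoter that drives the recombinase nor the strain or age of the mice, and do not say which cells lost Jak1. In whole tissue, fewer macrophages and less RNA per macrophage cannot be told apart.

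Promoter sequence is shown for a resident-type member, a lysosome-rich member and the 2 named members whose promoters hold letters of factors that act below JAK1. Of the 41 members 31 had a promoter in the RefSeq table (build GRCm38.p6), 36 promoters in all, and the 250 bases before each start were searched on both strands. The STAT letters TTCNNNGAA were present in 5.56% of the member promoters (Fcgr1 and Ncf1), against 7.02% of all 32851 promoters. The interferon response letters, GAAA and again GAAA after 2 free bases, stood in 4 of 36 member promoters (11.1%) and in 2.98% of all. The AP-1 letters TGANTCA stood in 7 (19.4%) against 6.75%, and the PU.1 letters GAGGAAGT in 1 (2.78%) against 2.44%. These shares were not compared by a test, and the members were chosen with earlier results of these data known. No matches overlapped in the promoters shown. Capitals mark the matches: AP-1 at bases -9 to -3 of Trem2, STAT at -109 to -101 of Fcgr1 (a high-affinity antibody receptor), and interferon response at -157 to -148 of Aif1 (a calcium-binding protein of macrophages), counted back from the start. The Mrc1 window holds none of these letters. A match describes the letters and is not a bound site.
Mrc1 (chr2:14229164-14229413, plus strand): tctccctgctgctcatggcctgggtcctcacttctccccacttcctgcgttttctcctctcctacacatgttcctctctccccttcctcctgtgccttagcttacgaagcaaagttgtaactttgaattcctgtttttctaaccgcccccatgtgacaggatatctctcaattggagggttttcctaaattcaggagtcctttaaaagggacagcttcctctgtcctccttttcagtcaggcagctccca
Trem2 (chr17:48346151-48346400, plus strand): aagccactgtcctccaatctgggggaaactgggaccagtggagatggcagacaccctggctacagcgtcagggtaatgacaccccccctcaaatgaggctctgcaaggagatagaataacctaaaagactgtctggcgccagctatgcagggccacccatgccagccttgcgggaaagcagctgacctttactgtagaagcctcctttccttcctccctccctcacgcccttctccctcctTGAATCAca
Fcgr1 (chr3:96293970-96294219, minus strand): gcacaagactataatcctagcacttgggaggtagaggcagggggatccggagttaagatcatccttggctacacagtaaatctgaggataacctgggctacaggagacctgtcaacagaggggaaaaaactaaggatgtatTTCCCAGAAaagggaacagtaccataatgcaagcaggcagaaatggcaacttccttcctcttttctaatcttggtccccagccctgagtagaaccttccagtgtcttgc
Aif1 (chr17:35176053-35176302, minus strand): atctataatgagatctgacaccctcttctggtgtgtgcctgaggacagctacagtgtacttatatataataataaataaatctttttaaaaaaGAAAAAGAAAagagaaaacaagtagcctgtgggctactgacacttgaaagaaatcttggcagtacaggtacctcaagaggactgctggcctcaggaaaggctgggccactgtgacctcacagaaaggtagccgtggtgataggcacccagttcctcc

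Expression is given in FPKM, fragments scaled to transcript length and to library size, as deposited. Jak1 itself stood at 17.3 to 26.3 FPKM in knockout and 23.97 to 24.6 FPKM in control glands at involution (adjusted p = 0.989 with limma), and at 9.51 to 11.2 FPKM in knockout and 6.18 to 14.2 FPKM in control glands at lactation (adjusted p = 0.999), so whole-gland Jak1 does not check the labels. Relative to the mean of its stage's table, depth estimated from the steps of low values ran from 0.485 (knockout M43196, involution) to 1.5 (knockout M44440, involution). At lactation depth was 1.29, 0.985 and 1.17 in knockouts M44174, M42734 and M43767. It was 1.09, 0.751 and 0.723 in controls M42186, M43768 and M44175. FPKM summed over all symbols to 871630 in control M44175 at lactation, against 312976 to 421592 in the other lactation libraries. The sum was 1367558 in knockout M43196 at involution, against 590437 to 958496 in the other involution libraries. Control M43768 at lactation stood apart in lymphocyte genes: its T and NK cell markers summed to 38.9 FPKM, against 1.67 to 3.73 FPKM in the other lactation libraries of both groups. Knockout M43196 stood apart at involution in the neutrophil granule genes Camp (31.5 FPKM) and Ngp (34.5 FPKM), where no other library passed 1 FPKM, and knockout M43767 at involution in the skin keratin gene Krt10 (53.5 FPKM, against 1.48 to 3.59 FPKM in the other involution libraries). Some results are also given without single libraries. Medians of the Fc receptors with their adaptors, and of the lists of other cell types, are given with all libraries only. The casein gene Csn2 was listed at 0 in all 13 libraries, so an exact 0 is reported only as a listed value.

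Macrophage genes stood higher at involution than at lactation in both genotypes. The stages come from separate tables that may have been scaled separately, so their levels are set side by side without a test. Because the bulk of genes was higher at involution, FPKM were also rescaled over all 13 libraries. Over both stages 39 members reached 1 FPKM in at least 3 libraries, but 14 of them, Mrc1, Cd163 and Trem2 included, did so only through involution, where they are high, so their direction is partly fixed by that filter. Of the 25 members that passed it within lactation, every involution library lay above every lactation library in 25 in knockout glands (79.4% of the genes that passed within lactation) and in 24 in control glands (71.3%), as deposited. On the rescaled values the counts were 17 of 25 in knockout glands (24.2% of genes) and 14 of 25 in control glands (22.3%). The median ratio of involution to lactation over these 25 members was 2.84 in knockout and 2.33 in control glands on the rescaled values, against 1.05 in knockout and 1.01 in control glands over the genes that passed within lactation.

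Over all 39, as a description, the counts as deposited were 39 in knockout glands (all genes, 80.1%) and 37 in control glands (all genes, 73.3%). The exceptions in control glands, Ptprc (the leukocyte surface phosphatase CD45) and Timd4 (a receptor for phosphatidylserine on dying cells), were set by the lymphocyte-rich M43768. Rescaled, they were 25 of 39 in knockout glands (all genes, 29.2%) and 24 of 39 in control glands (all genes, 27%), and no member lay wholly below (all genes, 17.9% in knockout and 14.9% in control glands).

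Ratios differed between members. On the rescaled values Cyba, the shared membrane subunit of the NADPH oxidase, stood 8.41 times higher at involution in knockout glands and 4.23 times in control glands. For Cd68, a lysosomal glycoprotein of macrophages, the ratios were 3.52 in knockout and 5.97 in control glands. Csf1, the growth factor that macrophages depend on, had ratios of 1.13 in knockout and 0.869 in control glands, and its receptor gene Csf1r had 1.93 in knockout and 2.33 in control glands. Mrc1 had ratios of 4.02 in knockout and 3.75 in control glands. The other resident-type and lysosome-rich genes had smaller ratios in knockout than in control glands. Trem2 had 2.70 in knockout and 5.18 in control glands, and Cd163 had 1.93 in knockout and 4.20 in control glands. Folr2 had 2.16 in knockout and 2.73 in control glands. Gpnmb, low in all libraries, had 0.679 in knockout and 2.34 in control glands. All control values of Trem2 and Cd163 at lactation were under 1 FPKM, and 1 of those of Trem2 was listed at 0.

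**Figure D1:**
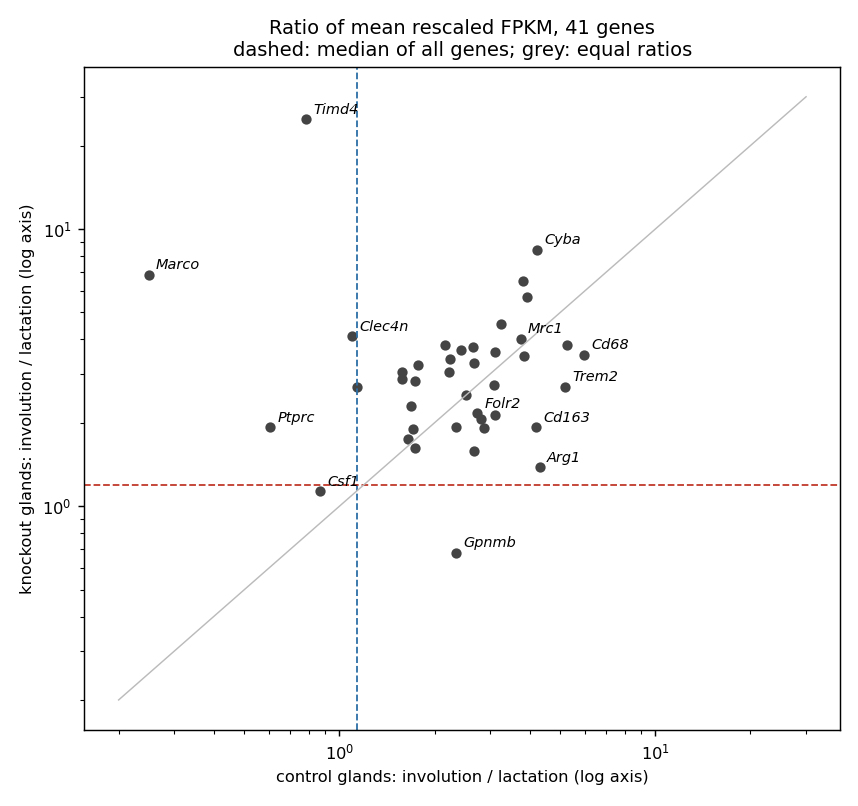
Ratio of mean rescaled FPKM at day 2 of involution over day 7 of lactation for the 41 members, in knockout glands (y, log axis) and control glands (x, log axis). Dashed lines mark the medians of all genes (1.19 in knockout, 1.14 in control glands), and most members lie above both. Timd4 and Marco rest on lactation values listed at 0 in some libraries of both genotypes. Trem2, Siglec1 and Ncf4 each rest on 1 control lactation library listed at 0.

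At involution, the resident-type genes Mrc1 and Folr2 and the lysosome-rich gene Trem2 had higher means in knockout than in control glands, but none passed the threshold. Mrc1 stood at 13.8, 8.93, 13.6 and 8.08 FPKM in the 4 knockout libraries (here and below in the order M43196, M43767, M44176 and M44440) and at 4.73, 6.57 and 6.25 FPKM in the 3 control libraries (M44448, M43768 and M43914). Every knockout library lay above every control library, as in 2.67% of the genes tested. Mrc1 was the only 1 of the 39 members tested with this separation, so the member share was near that of all genes. The log2 difference of Mrc1 was 0.82 ± 0.22 (SE), with an adjusted p of 0.449 in limma's moderated test over 12509 genes.

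Trem2, whose product binds lipids and apoptotic cells and signals through Tyrobp, had a difference of similar size. It stood at 8.99, 9.09, 7.73 and 3.66 FPKM in knockout glands and at 5.08, 3.38 and 2.71 FPKM in control glands. Knockout M44440 lay among the controls, so the groups overlapped. The log2 difference was 0.81 ± 0.31 (limma adjusted p = 0.657).

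Folr2, which binds folate, stood at 30.1, 15.6, 26.3 and 9.94 FPKM in knockout glands and at 15.5, 10.5 and 8.07 FPKM in control glands. M43196 and M44176 were well above the controls and M44440 lay among them (log2 difference 0.75 ± 0.38, limma adjusted p = 0.847). Cd163, which takes up haemoglobin bound to haptoglobin, stood at 5.72, 3.50, 3.66 and 1.64 FPKM in knockout glands and at 2.70, 2.55 and 2.37 FPKM in control glands. Here 3 knockout libraries were above all controls and M44440 was below them (log2 difference 0.33 ± 0.29, limma adjusted p = 0.958).

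Gpnmb was low in all libraries. It stood at 0.726, 0.799, 0.503 and 0.276 FPKM in knockout glands and at 1.03, 0.238 and 0.284 FPKM in control glands, below the expression filter of 1 FPKM in at least 3 libraries. The highest library was a control, M44448, and the groups overlapped. Fitted without the filter, Gpnmb had a log2 difference of 0.09 ± 0.21 (limma adjusted p = 0.968). The lysosome-rich type was therefore tested through Trem2 only.

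**Figure D2:**
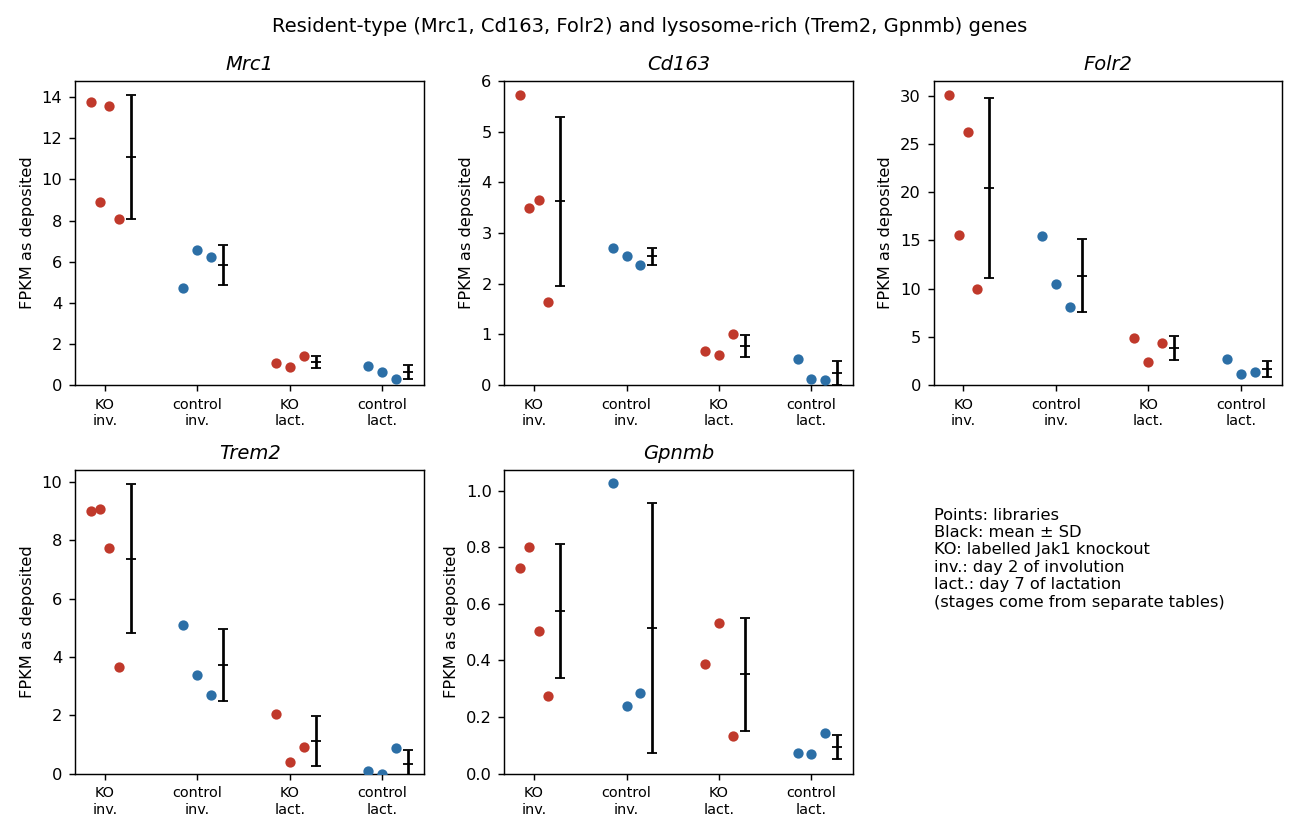
FPKM as deposited in each library (points) with the mean ± SD of the group (black, bars cut at 0) for the resident-type genes Mrc1, Cd163 and Folr2 and the lysosome-rich genes Trem2 and Gpnmb. The 4 knockout libraries at involution lie above the 3 controls in Mrc1, and overlap them in the other 4 genes.

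To set members against each other within a library, each was divided by Csf1r, the growth factor receptor of the lineage, a divisor chosen with earlier results known. Trem2 divided by Csf1r was 0.423, 0.588, 0.610 and 0.505 in knockout and 0.291, 0.253 and 0.287 in control glands at involution. Folr2 divided by Csf1r was 1.42, 1.01, 2.08 and 1.37 in knockout and 0.887, 0.784 and 0.853 in control glands. Both genes separated the groups on this scale, as did Fcgr1, Fcgr3, Fcer1g and Clec4n, 6 of the 39 members tested (all genes, 1.41%). Mrc1 divided by Csf1r overlapped (0.578 to 1.12 in knockout, 0.271 to 0.661 in control glands), and so did Cd163 (0.226 to 0.289 in knockout, 0.155 to 0.251 in control glands). Mrc1 overlapped because knockouts M43767 (0.578) and M43196 (0.647) lay below control M43914 (0.661). On this scale 0 of 39 members lay below the controls in every knockout library (all genes, 0.52%). The 39 include Csf1r itself, whose ratio is fixed at 1. Dividing by Csf1r removes spread that a gene shares with it and adds its spread to other genes. The shares over all genes are therefore no like yardstick for the members, and these counts show no excess.

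**Figure D3:**
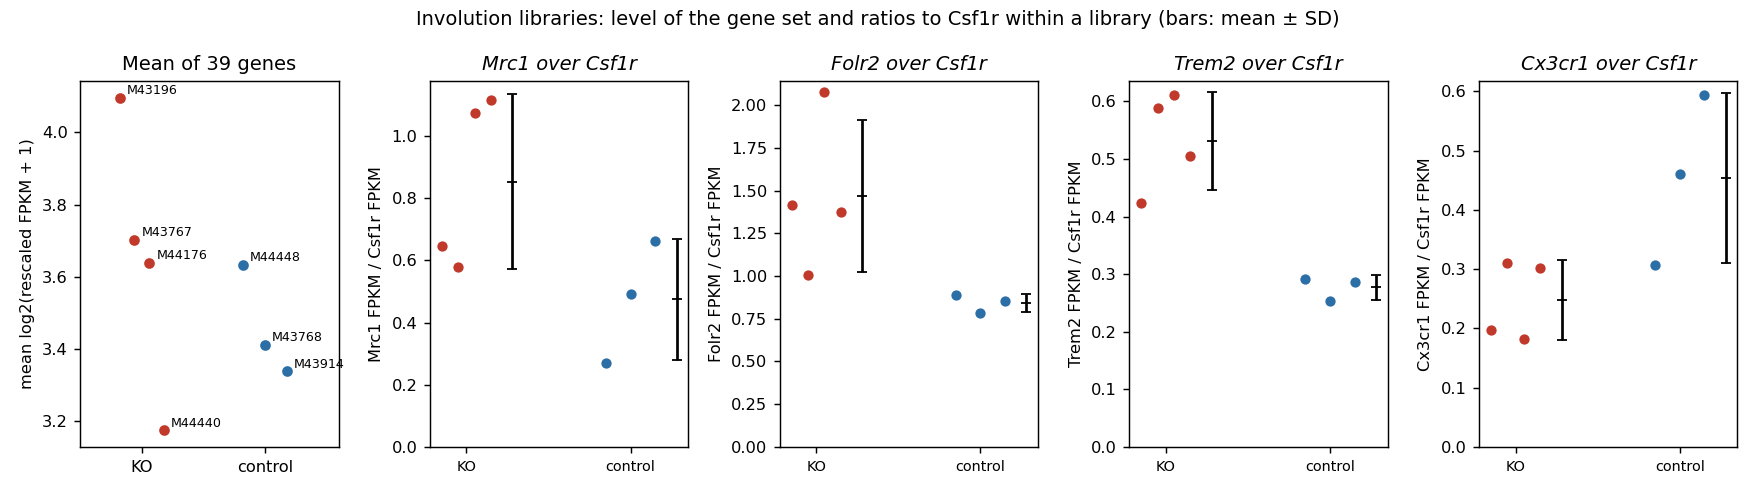
Involution libraries, knockout left of control. The first panel gives the mean log2(rescaled FPKM + 1) of the 39 members tested with the mouse numbers; the others give FPKM of Mrc1, Folr2, Trem2 and Cx3cr1 divided by that of Csf1r in the same library (bars, mean ± SD). Knockout M43196 is highest (4.10) and knockout M44440 lowest (3.18) in the first panel, and Trem2 and Folr2 over Csf1r separate the groups.

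Of the 41 members 39 passed the expression filter at involution (all but Gpnmb and Marco) and 0 passed the threshold of an adjusted p of 0.05 with limma, against 0.0719% of all genes tested. At an unadjusted p under 0.05 there were 4 members (Mrc1, Cx3cr1, Trem2 and Clec4n) of 39, against 6.84% of all genes. A positive log2 difference was found in 28 of 39 members, against 51.8% of all genes, with a median of 0.26 (all genes, 0.01). That lean depended on single libraries: it was 24 of 38 with a median of 0.12 without knockout M43196, and 33 of 39 with a median of 0.37 without knockout M44440. The median was also 0.17 without control M43914.

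Knockout libraries spread widely in these genes. M43196 was the highest of the 7 involution libraries in 24 of the 39 members, and M44440 the lowest in 16. Their mean log2 levels over the members were 4.10 and 3.18, with the 3 controls between them at 3.34 to 3.63. M43196 was also the shallowest and M44440 the deepest library by the estimate above, and M43196 carried the granule genes of neutrophils. The part of depth and of neutrophils in these levels was not tested.

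Genes of the growth factor axis overlapped between the genotypes at involution. Csf1r stood at 14.2 ± 5.84 FPKM in knockout and 13.4 ± 4.01 FPKM in control glands (SD, n = 4 and 3), Csf1 at 10.6 ± 2.17 FPKM in knockout and 9.22 ± 2.10 FPKM in control glands. Spi1, the PU.1 transcription factor of the myeloid lineage, stood at 12.7 ± 4.95 FPKM in knockout and 9.99 ± 1.32 FPKM in control glands. The adjusted p for these genes ran from 0.963 to 0.998 with limma.

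The Fc receptors and their adaptors all had positive log2 differences, 5 of 5 (all genes, 51.8%) with a median of 0.45, and none passed. Much of the height of the knockout means lay in M43196. It stood at 123 FPKM in Fcer1g, 149 FPKM in Tyrobp and 26.7 FPKM in Fcgr3. The other knockout libraries stood at 33.7 to 67.7, 72.0 to 93.5 and 8.15 to 18.8 FPKM in these genes. Fcgr1 stood at 5.21, 4.72, 3.71 and 2.45 FPKM in knockout glands and at 2.53, 2.78 and 2.26 FPKM in control glands. Knockout M44440 alone lay among the controls (log2 difference 0.50 ± 0.22, limma adjusted p = 0.733). Fcer1g, the signalling chain shared by Fc receptors, averaged 70.8 ± 37.9 FPKM in knockout and 47.9 ± 9.92 FPKM in control glands, and Tyrobp, the adaptor of Trem2, averaged 100 ± 33.5 FPKM in knockout and 83.0 ± 13.8 FPKM in control glands. Fcgr2b, an inhibitory receptor, averaged 9.61 ± 3.88 FPKM in knockout and 7.02 ± 1.21 FPKM in control glands. Fcgr3, an activating receptor, averaged 17.4 ± 7.67 FPKM in knockout and 11.8 ± 2.56 FPKM in control glands. Shared sequence makes the split of reads between them uncertain.

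Cx3cr1, the fractalkine receptor of monocytes and some tissue macrophages, stood in the other direction. It was at 4.19, 4.79, 2.30 and 2.19 FPKM in knockout glands and at 5.37, 6.15 and 5.61 FPKM in control glands. Every knockout library lay below every control library, in 1 of the 39 members tested against 4.42% of all genes. The log2 difference was -0.65 ± 0.24 (limma adjusted p = 0.652). Divided by Csf1r it overlapped (0.182 to 0.310 in knockout and 0.307 to 0.593 in control glands).

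The other 11 general markers had log2 differences from -0.34 (Mpeg1, a pore-forming protein of phagocytes) to 0.41 (Itgam, the integrin CD11b), with adjusted p from 0.930 to 0.998 with limma. Emr1, which encodes F4/80, averaged 6.32 ± 2.44 FPKM in knockout and 4.39 ± 0.856 FPKM in control glands. Cd68 stood at 51.2, 24.5, 29.3 and 20.9 FPKM in knockout glands and at 32.8, 33.0 and 26.5 FPKM in control glands, with M43196 alone above the controls. Aif1 stood at 41.4, 31.6, 21.0 and 27.6 FPKM in knockout glands and at 33.9, 26.8 and 19.1 FPKM in control glands. Ms4a6c, a membrane protein of myeloid cells, stood at 17.6, 12.0, 11.1 and 9.92 FPKM in knockout glands and at 9.58, 10.3 and 10.98 FPKM in control glands. In both genes M43196 was the highest library and the groups overlapped. Ptprc was nearly equal, at 4.70 ± 1.07 FPKM in knockout and 4.44 ± 0.337 FPKM in control glands.

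Among the remaining lectins and scavenger receptors, Clec4n, which encodes the fungal sugar receptor dectin-2, stood at 6.45, 5.63, 3.32 and 2.86 FPKM in knockout glands and at 2.77, 2.93 and 1.96 FPKM in control glands. M44440 lay just among the controls, and the log2 difference was 0.62 ± 0.26 (limma adjusted p = 0.718). Clec7a, the related beta-glucan receptor dectin-1, averaged 4.74 ± 1.62 FPKM in knockout and 6.17 ± 2.90 FPKM in control glands. Clec10a, a galactose-binding lectin, averaged 18.4 ± 12.2 FPKM in knockout and 11.7 ± 5.81 FPKM in control glands. Msr1, Siglec1 and Timd4 averaged between 1.05 and 2.32 FPKM in either group, and Marco, a scavenger receptor, was below 0.5 FPKM in every involution library.

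Enzymes were among the most abundant members. Lyz2, the macrophage lysozyme, stood at 315, 162, 224 and 97.6 FPKM in knockout glands and at 151, 89.5 and 148 FPKM in control glands. M44440 again lay among the controls (log2 difference 0.56 ± 0.40, limma adjusted p = 0.940). Lyz1 is a near copy of Lyz2, so the reads of both are uncertain, and it averaged 45.0 ± 20.5 FPKM in knockout and 38.1 ± 5.38 FPKM in control glands. Ctss, the lysosomal protease cathepsin S, averaged 63.7 ± 19.0 FPKM in knockout and 70.9 ± 12.4 FPKM in control glands.

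Arg1 and Retnla, genes of alternatively activated macrophages, differed from each other. Arg1, arginase 1, stood at 6.51, 7.21, 7.73 and 8.99 FPKM in knockout glands and at 19.6, 5.30 and 24.7 FPKM in control glands. The knockout libraries were close together, and 2 controls lay far above them while M43768 lay below (log2 difference -0.78 ± 0.44, limma adjusted p = 0.898). The difference was -1.40 without control M43768, -0.40 without control M43914 and -0.32 with array weights. Retnla, a secreted resistin-like protein that adipose tissue also makes, stood at 524, 90.8, 189 and 70.7 FPKM in knockout glands and at 350, 181 and 75.4 FPKM in control glands. Both groups spanned a wide range and overlapped fully (log2 difference -0.06 ± 0.75, limma adjusted p = 0.998).

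Of the NADPH oxidase, which makes the oxidants of phagocytes, the 4 members tested split evenly at involution. Cyba stood at 132, 83.8, 168 and 125 FPKM in knockout glands and at 125, 102 and 173 FPKM in control glands, with the groups interleaved. Cybb, the catalytic subunit, averaged 5.61 ± 1.99 FPKM in knockout and 5.75 ± 0.721 FPKM in control glands. The cytosolic subunits Ncf1 (6.402 ± 2.34 FPKM in knockout and 4.85 ± 0.717 FPKM in control glands) and Ncf4 (7.69 ± 2.54 FPKM in knockout and 5.85 ± 0.432 FPKM in control glands) had positive log2 differences of 0.31 and 0.32.

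**Figure D4:**
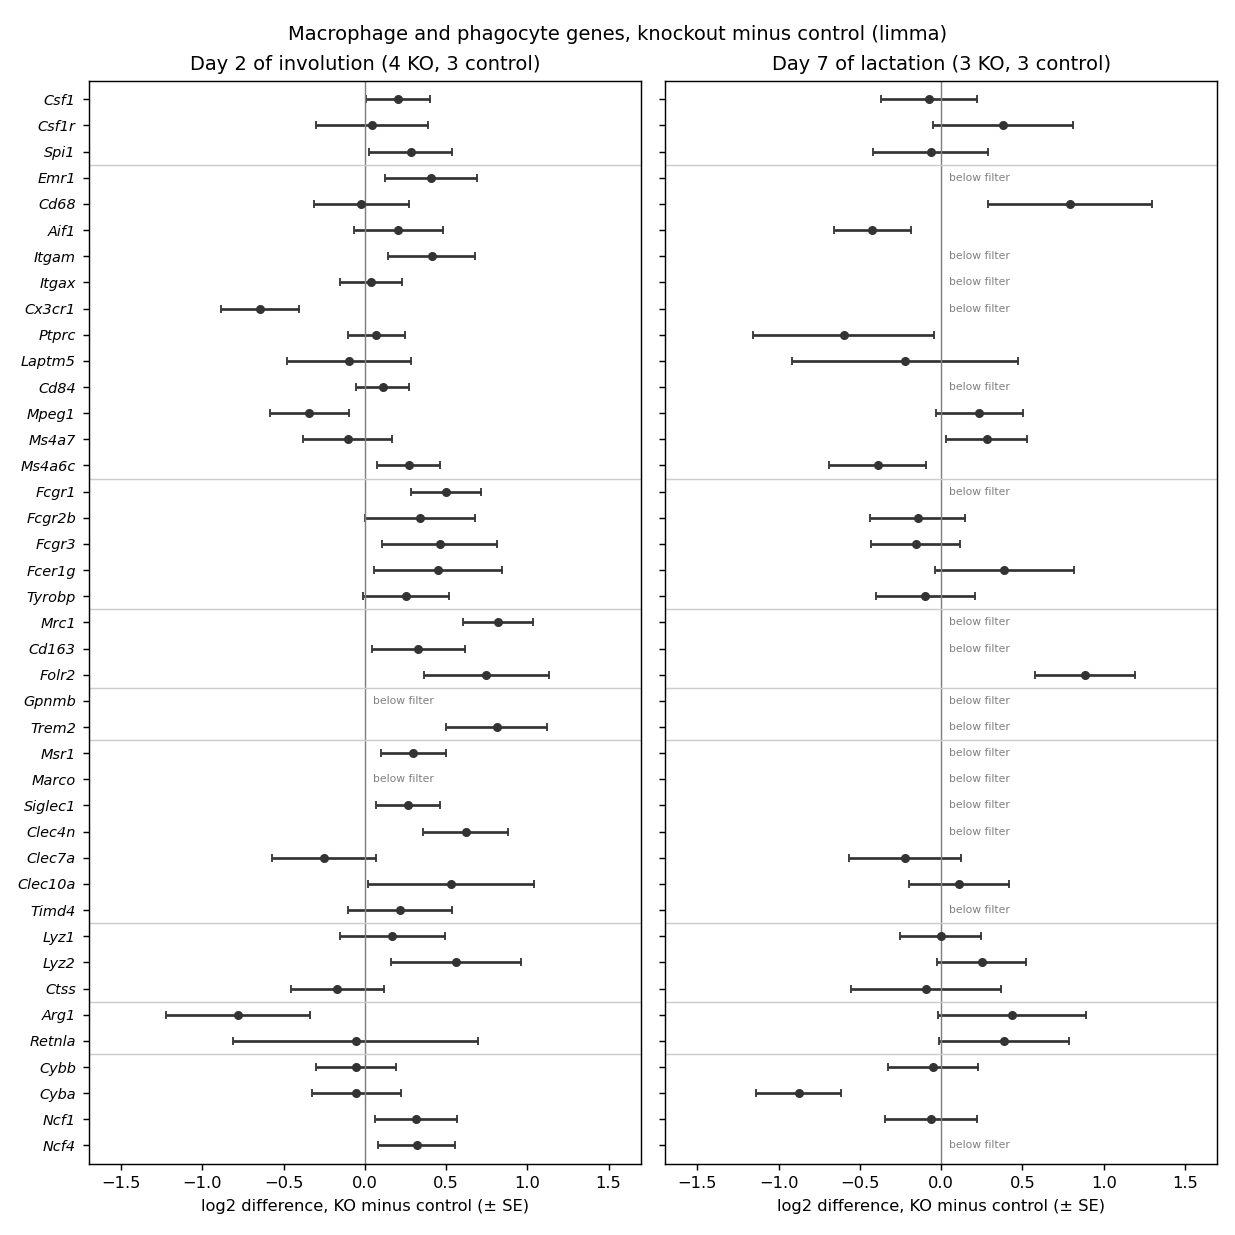
Log2 difference, knockout minus control (points) with its standard error (bars), from limma for the members that passed the expression filter at day 2 of involution (left) and day 7 of lactation (right); grey lines part the role groups and members below the filter are marked. At involution 28 of 39 points lie above 0, and at lactation 10 of 25.

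At lactation the macrophage genes were low and showed no common direction. Only 25 of the 41 members passed the expression filter, and 0 passed the threshold with limma (all genes, 0.0105%). A positive log2 difference was found in 10 of 25 members (all genes, 51.2%), with a median of -0.06 (all genes, 0.01). The median turned to 0.13 with 17 of 25 positive without knockout M44174, to 0.10 with 14 of 23 without control M43768, and to 0.06 with 13 of 23 without control M42186. At an unadjusted p under 0.05 there were 2 members, Cyba and Folr2 (all genes, 2.38%).

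Cyba stood at 5.93, 6.02 and 6.52 FPKM in knockout glands (M44174, M42734 and M43767) and at 8.11, 14.0 and 17.8 FPKM in control glands (M42186, M43768 and M44175) at lactation. Every knockout library lay below every control library, as in 3.17% of all genes, and 0 of 25 members lay wholly above (all genes, 2.89%). The log2 difference was -0.88 ± 0.26 (limma adjusted p = 0.998). Cyba is also transcribed outside phagocytes, and the other oxidase subunits tested, Cybb and Ncf1, differed by -0.05 and -0.06.

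Folr2 leaned the same way at lactation as at involution. It stood at 4.84, 2.39 and 4.31 FPKM in knockout glands and at 2.66, 1.14 and 1.33 FPKM in control glands, where only knockout M42734 lay among the controls (log2 difference 0.88 ± 0.31, limma adjusted p = 0.998). The other resident-type genes were below the filter. Mrc1 stood at 1.07, 0.858 and 1.43 FPKM in knockout and 0.947, 0.636 and 0.305 FPKM in control glands, and Cd163 at 0.678, 0.601 and 1.02 FPKM in knockout and 0.514, 0.119 and 0.0927 FPKM in control glands. Every knockout library lay above the controls in Cd163, and in Mrc1 only knockout M42734 lay among them. Of the genes tested at lactation, which leave out Cd163, 2.89% lay wholly above.

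The lysosome-rich genes were also below the filter at lactation. Trem2 stood at 2.06, 0.405 and 0.907 FPKM in knockout glands, and at 0.0975 and 0.880 FPKM in controls M42186 and M44175, while control M43768 was listed at 0. Gpnmb stood at 0.386, 0.531 and 0.134 FPKM in knockout glands and at 0.0722, 0.0697 and 0.145 FPKM in control glands. For both, the highest values were in knockout libraries and the groups overlapped. Fitted without the filter, Trem2 had a log2 difference of 0.70 ± 0.34, Gpnmb of 0.30 ± 0.11, Mrc1 of 0.41 ± 0.21 and Cd163 of 0.53 ± 0.17, each with an adjusted p of 0.993 with limma. Controls M43768 and M44175 were the shallowest lactation libraries by the estimate above. The part of depth in these low values was not tested.

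Of the other members, Cd68 had a log2 difference of 0.79 ± 0.50 at lactation (limma adjusted p = 0.998). It stood at 2.28, 4.72 and 3.90 FPKM in knockout and 3.48, 2.52 and 0.162 FPKM in control glands, where control M44175 was far below the other 5 libraries. The difference was 0.19 without control M44175, 1.196 without control M42186, 1.45 with a pseudocount of 0.1 and 0.50 with array weights. Aif1 stood at 1.42, 1.42 and 2.88 FPKM in knockout and 2.71, 2.99 and 3.10 FPKM in control glands, and only knockout M43767 lay among the controls (log2 difference -0.42 ± 0.24, limma adjusted p = 0.998). Cx3cr1, at 0.268, 0.861 and 1.02 FPKM in knockout and 1.34, 0.670 and 0.403 FPKM in control glands, overlapped between the groups. So did Fcgr1, at 0.153, 0.200 and 0.506 FPKM in knockout and 0.218, 0.315 and 0.273 FPKM in control glands. Both were below the filter. Ms4a6c stood at 1.08, 1.63 and 2.36 FPKM in knockout and 1.43, 2.56 and 4.36 FPKM in control glands, which overlapped. Ptprc and Laptm5, which other leukocytes share, stood at 7.30 and 11.6 FPKM in the lymphocyte-rich control M43768, above all other lactation libraries. The 2 genes of alternative activation overlapped between the groups. Arg1 stood at 3.16, 2.77 and 0.885 FPKM in knockout and 2.45, 0.197 and 2.15 FPKM in control glands. Retnla stood at 40.5, 30.3 and 26.3 FPKM in knockout and 29.9, 37.5 and 14.2 FPKM in control glands. Lyz2 stood at 33.9, 34.9 and 37.2 FPKM in knockout and 20.3, 38.6 and 37.8 FPKM in control glands, where only control M42186 was apart.

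The difference between the knockout effects of the stages was tested in a joint fit, as the effect at involution minus that at lactation. Of 39 members 0 passed with limma (all genes, 0.0789%), also with the mouse number as a replicate block, where 20 rather than 10 of all genes passed. Of the members, 1 had an unadjusted p under 0.05 (all genes, 3.35%), and 25 were positive (all genes, 51.1%). That member was Clec4n, with a difference of 1.04 ± 0.33 (limma adjusted p = 0.999). At lactation it stood at 0.308, 0.458 and 0.592 FPKM in knockout glands, below the controls at 0.997, 1.07 and 0.831 FPKM. Clec4n was below the filter at that stage, where 3.17% of the genes tested lay wholly below. Arg1 had the most negative value, -1.22 ± 0.70. Cyba had 0.82 ± 0.39, Ms4a6c 0.66 ± 0.37 and Cd84, a self-binding receptor of leukocytes, 0.44 ± 0.24, and the limma adjusted p of these 4 genes was 0.999. Cd84 stood at 2.54, 2.17, 2.18 and 1.696 FPKM in knockout and 2.32, 1.94 and 1.58 FPKM in control glands at involution. At lactation it stood at 0.261, 0.402 and 0.313 FPKM in knockout and 0.421, 1.09 and 0.632 FPKM in control glands, with every knockout library below. Cd84 was also below the filter there (genes tested, 3.17% wholly below). For Mrc1, Cd163, Folr2 and Trem2 the values were 0.41 ± 0.32, -0.20 ± 0.38, -0.13 ± 0.54 and 0.11 ± 0.50. With a pseudocount of 0.1 they were 0.04 for Mrc1, -1.16 for Cd163, -0.42 for Folr2 and -1.06 for Trem2, so these low genes give no stable size and, for Trem2, no stable direction. Leaving out 1 library also turned the sign of Cd163, Folr2 and Trem2.

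Of 10 further genes of resident-type macrophages tested at involution 8 were positive (all genes, 51.8%), with a median of 0.47, and none passed. The members of this list with the smallest p were Pf4, a chemokine of platelets and macrophages (72.3 ± 35.8 FPKM in knockout and 27.4 ± 3.34 FPKM in control glands, limma adjusted p = 0.474), and F13a1, a clotting factor subunit (20.5 ± 7.19 FPKM in knockout and 11.9 ± 1.29 FPKM in control glands, adjusted p = 0.657). Without knockout M44440 the median was 0.71. Summed FPKM of this list overlapped at involution, at 298 to 623 in knockout (median 356) and 339 to 425 in control glands (median 384). M43196 alone lay above the controls in that sum. At lactation 8 of 8 were positive (all genes, 51.2%) with a median of 0.43, and none passed. All fibroblast, adipocyte and endothelial markers tested were positive at that stage too.

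Of 13 further genes of lysosome-rich macrophages tested at involution 5 were positive (all genes, 51.8%), with a median of -0.30 (-0.13 without control M43914 and -0.17 without knockout M43767). Their log2 differences ran from -5.29 to 0.98. Only Spp1, which encodes osteopontin, passed, falling to 263 ± 219.6 FPKM in knockout glands, against 8896 ± 3493 FPKM in control glands (log2 difference -5.29 ± 0.61, limma adjusted p = 0.0363). The number called in this list was 1 without knockout M43196 and 0 without each other involution library (controls M44448, M43768 and M43914, knockouts M43767, M44176 and M44440). Lipa, the lysosomal acid lipase, stood at 114 ± 31.1 FPKM in knockout and 190 ± 35.2 FPKM in control glands (adjusted p = 0.599). Spp1 is also transcribed by mammary epithelium. In control glands at lactation this list summed to 1156 to 1677 FPKM, against 154 to 193 FPKM for all members of the main list together. Spp1 averaged 548 ± 98.7 FPKM in those glands, so other genes of this list were abundant too. Which cells transcribe Lipa and the other genes was not tested, so the median of this list is not a value of macrophages alone. At lactation 8 of 12 genes of this list were positive (all genes, 51.2%) with a median of 0.14, and none passed. In the joint fit 1 gene of this list passed, again Spp1 (log2 difference of the effects -6.63). The difference between these lists was not tested.

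Of 29 further myeloid genes tested, 22 were positive at involution (all genes, 51.8%) with a median of 0.23 and none passed. The smallest p were those of Slc11a1, a phagosomal metal transporter (3.58 ± 0.678 FPKM in knockout and 2.46 ± 0.252 FPKM in control glands, limma adjusted p = 0.663), and Csf2rb2, a receptor subunit (7.78 ± 1.33 FPKM in knockout and 5.55 ± 1.23 FPKM in control glands, adjusted p = 0.727). Without knockout M43196 the median of this list was 0.10 with 20 of 29 positive, without control M43914 it was 0.12, without knockout M43767 0.15, and without control M44448 0.37.

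No marker of another cell type passed the threshold at either stage, though some lists lay on 1 side. All 6 fibroblast markers were positive at both stages, with medians of 0.90 at involution and 0.73 at lactation, as were all 7 adipocyte markers (0.69 at involution and 0.77 at lactation). Among all genes tested, 51.8% were positive at involution and 51.2% at lactation. Summed fibroblast markers ranged from 306 to 803 FPKM in knockout and from 175 to 405 FPKM in control glands at involution, and summed adipocyte markers from 4513 to 15680 FPKM in knockout and from 3959 to 7907 FPKM in control glands. The 6 luminal epithelial markers had medians of -0.03 at involution and -0.05 at lactation. Summed neutrophil markers ranged from 36.3 to 473 FPKM in knockout and from 57.7 to 239 FPKM in control glands at involution, with M43196 the highest. At involution the medians of the remaining lists were 0.74 for mast cells and eosinophils (5 of 6 positive), 0.62 for skin keratinocytes (3 of 3), 0.07 for endothelium (3 of 5), 0.04 for T and NK cells (3 of 4), -0.05 for dendritic cells (2 of 4), -0.22 for neutrophils (2 of 5), -0.51 for B and plasma cells (1 of 3) and -0.28 for lymph node stroma (0 of 1). At lactation they were 0.86 for mast cells and eosinophils (4 of 4 positive), 0.64 for endothelium (4 of 4), 0.04 for neutrophils (1 of 2), -0.15 for B and plasma cells (0 of 1), -0.24 for skin keratinocytes (1 of 3) and -0.38 for dendritic cells (1 of 3). Summed endothelial markers at lactation ranged from 21.9 to 31.1 FPKM in knockout and from 11.8 to 18.04 FPKM in control glands, which did not overlap, beside the positive values of Folr2, Cd163 and the further resident-type genes at that stage. With array weights 1 adipocyte marker passed at lactation, and the lactation medians were 1.43 for fibroblasts, 1.21 for adipocytes and 0.39 for skin keratinocytes. The part of these cell types in the macrophage values was not tested.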

How the data were processed

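Whole-gland RNA was purified on silica columns, made into TruSeq libraries and sequenced on an Illumina instrument, per the labels. The deposited FPKM tables, 1 per stage, were made by the authors with CASAVA, cutadapt and TopHat on build mm9, per the submitters' processing notes. Their quantifier, annotation and scaling were not given in the sources used here, nor were fragment counts, so counting intervals are absent.

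Within each table FPKM were scaled by median-of-ratios factors (0.954 to 1.12) and taken as log2(FPKM + 1), which understates changes of low genes. The filter kept symbols reaching 1 FPKM in 3 or more libraries. Tests used limma 3.58.1 (lmFit, eBayes with trend) in R 4.3.3, two-sided, with p-values adjusted by Benjamini-Hochberg over every symbol that passed the filter, at a threshold of 0.05. The joint fit took all 13 libraries. The fits were run on simulated data with larger changes than those of the members, in genes above the filter and with the same spread for every gene. That setting does not show what the fits find or miss among low genes or small differences. Errors beside FPKM are SD and beside log2 differences SE.

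The members and gene lists were chosen with earlier results of these data known. Values in every library are given for the resident and lysosome-rich types, the 5 members with the smallest p in each fit and the 3 most abundant members. In other lists, the 2 genes with the smallest p at involution, or those past the threshold, could be named. Knockout and control libraries of 1 stage share no mouse number. Across stages 2 numbers recur, though the labels count separate mice, and the joint fit was repeated with the number as a block (consensus correlation 0.697). Promoters are RefSeq's and their build differs from that of the FPKM. Labels name no batch and do not state separate litters, so p-values measure the spread between these libraries.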

Additional observations from a re-analysis of the deposited data

How the results depend on the processing

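No member passed the threshold in any of 48 alternative fits, which changed the pseudocount, filter, scaling, weights or eBayes setting, left out genes listed at 0 in 1 group, left out 1 library or used the replicate block. At involution the sign held in all 14 alternatives for Mrc1 (0.71 to 0.95), Trem2 (0.64 to 1.07), Folr2 (0.53 to 1.04) and Cd163 (0.13 to 0.58). Of 629 values over 38 gene and comparison pairs, 26 turned sign, and the cause was not tested. Array weights gave -0.23 for Retnla at lactation and 0.0107 for Cyba at involution, and a pseudocount of 0.1 gave -1.06 for the Trem2 and, with no turn, -1.16 for the Cd163 interaction. Leaving out 1 library gave, at lactation, -0.039 to 0.79 for Arg1 and -0.058 to 0.68 for Retnla. At involution it gave -0.23 to 0.14 for Cyba, -0.017 to 0.41 for Aif1, -0.28 to 0.14 for Cd68 and -0.65 to 0.49 for Retnla. For the interaction it gave -0.40 to 0.049 for Cd163, -0.40 to 0.15 for Folr2, -0.16 to 0.41 for Trem2 and -1.03 to 0.10 for Retnla. Of all genes, 1 passed at lactation, against 2 with a pseudocount of 0.1, 9 with array weights, 0 without genes listed at 0 and 0 to 3 without 1 library. At involution 9 passed, against 20 with array weights, 14 with robust eBayes, 1 without genes listed at 0 and 2 to 9 without 1 library. For the interaction 10 passed, against 16 with array weights, 1 without genes listed at 0, 6 to 12 without 1 library and 20 with the replicate block. Members past the filter within lactation with every involution library above lactation, a choice also made after seeing the data, numbered 25 in knockout and 24 in control glands as deposited, and 17 in knockout and 14 in control glands rescaled. Over both stages, members with every involution library above lactation numbered 39 in knockout and 37 in control glands as deposited, 25 in knockout and 24 in control glands once rescaled over all libraries, an alternative chosen after seeing the data, and then 25 to 33 in knockout and 24 to 31 in control glands without 1 library. Without 1 library and as deposited they numbered 39 in knockout and 37 to 39 in control glands. The median interaction of the members was 0.23, 0.04 with a pseudocount of 0.1 and 0.12 to 0.37 without 1 library. Many members stood under 1 FPKM at lactation, which limits every statement on that stage.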
